A study of Picea glauca with 69 samples.

Results

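GA2ox encodes gibberellin 2-oxidase, the enzyme that inactivates gibberellin, and its transcript was measured in white spruce (Picea glauca) seedlings by real-time quantitative PCR with reverse transcription. It was taken by its gene name, as 1 of the 5 gibberellin genes measured, with its normalized value and its 3 wells in each of 69 seedlings. All 69 values were used, and no seedling was filtered out or imputed. The extraction protocol calls the gene PgGA2ox1, and the deposited file identifies the target as the assembled transcript PG29_BFMXY_Trinity_Pasafly_comp427203_c0_seq1.

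The seedlings belonged to families of 3 breeding strategies. Controlled crosses between numbered parent trees (CC) gave 18 seedlings of 6 families, pollination with a pollen mixture, called polymix (PM), gave 21 seedlings of 6 families, and open pollination (OP), the control of the study, gave 30 seedlings of 8 families. No seedling received a treatment, and all were grown in a greenhouse in their second season until day 92. The titles name 20 families, of which 17 have 3 seedlings and 3 have 6 (754_PM, 754_OP and 927_OP). The design text gives 23 families. For 6 trees, each the first number of a family name, all 3 strategies are represented, and a CC family stands for 1 cross only. In 754_PM, 3 of the 6 seedlings carry the sample type of a control but are PM by title and by breeding strategy, and they were kept as PM. A label names needles as the tissue, but the extraction protocol names the apical internode. No marker of either tissue was among the genes measured, so the label could not be checked.

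Gibberellins are plant hormones that promote stem elongation. GA20ox and GA3ox make the enzymes that complete synthesis, and 2-oxidases end the signal by adding a hydroxyl group at carbon 2 of active gibberellins and of their precursors. Active hormone binds the receptor GID, which leads to breakdown of the growth repressor DELLA. In Arabidopsis, GA2ox genes are induced when gibberellin is plentiful, and GA20ox and GA3ox genes are repressed, a feedback that steadies the hormone level.

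Expression is given as log2 relative to the control gene TIF, the deposited value with its sign turned, so that values nearer to 0 are higher levels and a difference of 1 is a doubling if amplification is perfect. Over the 69 seedlings GA2ox had a mean of -8.66 ± 0.73 (SD), with the lowest seedling at -10.33, the median at -8.57 and the highest at -6.96. The highest seedling thus had 10.3 times the level of the lowest, whereas the central part of the distribution, between quartiles at -9.07 and -8.10, spanned a factor of 1.96. The threshold cycle (Ct, the cycle at which fluorescence crosses a threshold, which is later for a scarcer transcript) of GA2ox averaged 29.6 ± 0.898, with seedlings between 28.0 and 32.1, and that of TIF averaged 21.0 ± 0.833, between 19.0 and 23.1. In whole tissue, fewer cells of a type and less transcript per cell cannot be told apart.

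The 3 GA2ox wells of a seedling lay close together compared with the differences between seedlings. The SD over the wells had a median of 0.120 cycles and ranged from 0.00604 to 1.01. Well error was estimated from the differences of wells 1 and 2, for GA2ox and for TIF, and scaled to means of 3 wells. Well 3 did not enter it. It came to an SD of 0.128 on the log2 scale, 3.09% of the variance between seedlings. A single seedling, 754_OP repetition 1, had a well SD over 0.5 cycles, with wells at 28.0, 28.5 and 29.9. Its deposited value of -7.96 equals, to 2 decimals, the value from the first 2 wells. In 14 of the 69 seedlings well 3 was equal to the mean of wells 1 and 2 within 0.0001 cycles, so the well error may be understated.

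GA2ox averaged lower in CC and in PM families than in OP families, and neither difference passed the test against the spread between families. CC seedlings had a lowest value of -10.00, a median of -8.61 and a highest value of -7.47 (n = 18). PM seedlings had -9.96, -8.77 and -7.74 (n = 21), and OP seedlings had -10.33, -8.52 and -6.96 (n = 30), each in the same order of lowest, median and highest. The strategies overlapped over most of their range, and OP seedlings held both the highest and the lowest value of the series. Seedlings above the median of all 69 numbered 9 in CC, 9 in PM and 16 in OP, and families above the median of the 20 family means numbered 3 of 6 in CC, 1 of 6 in PM and 6 of 8 in OP.

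Over family means, GA2ox in CC averaged -8.81 ± 0.37 (SD, n = 6 families), -8.79 ± 0.23 in PM (n = 6) and -8.51 ± 0.35 in OP (n = 8). CC minus OP was -0.31 ± 0.19 (SE), a level of 0.808 of OP with a 95% interval of 0.606 to 1.09 (exact two-sided permutation p = 0.136, adjusted 0.340). PM minus OP was -0.28 ± 0.16, a level of 0.823 with an interval of 0.648 to 1.06 (exact two-sided permutation p = 0.116, adjusted 0.340). Both comparisons use the same 8 OP families. CC minus PM was -0.03 ± 0.18, a level of 0.983 with an interval of 0.751 to 1.29 (exact two-sided permutation p = 0.905, adjusted 0.905). This interval holds the differences that the test did not reject, and no smallest detectable difference was estimated. Of the 15 contrasts of 5 genes, 0 (0%) passed an adjusted p of 0.05. Before adjustment 3 were below 0.05, none of them of GA2ox. The labels do not say whether seedlings of a family came from separate seed lots, so the p-values here speak only to variation among the families sampled.

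The offsets rest on few units. Without repetition 1 of every family, CC minus OP was -0.15 and PM minus OP -0.19. Without repetition 2 PM minus OP was -0.53, and without repetition 3 CC minus OP was -0.59 and PM minus OP -0.16. Leaving out 927_OP, the OP family with the lowest mean, gave -0.41 for CC minus OP and -0.38 for PM minus OP (exact p = 0.0227 and 0.0122, both adjusted 0.0852), and leaving out 138*752_CC gave -0.20 for CC minus OP. The Ct of TIF averaged 20.9 over CC, 21.0 over PM and 21.0 over OP families, and that of GA2ox 29.7 ± 0.272, 29.8 ± 0.626 and 29.5 ± 0.469 in the same order.

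**Figure D1:**
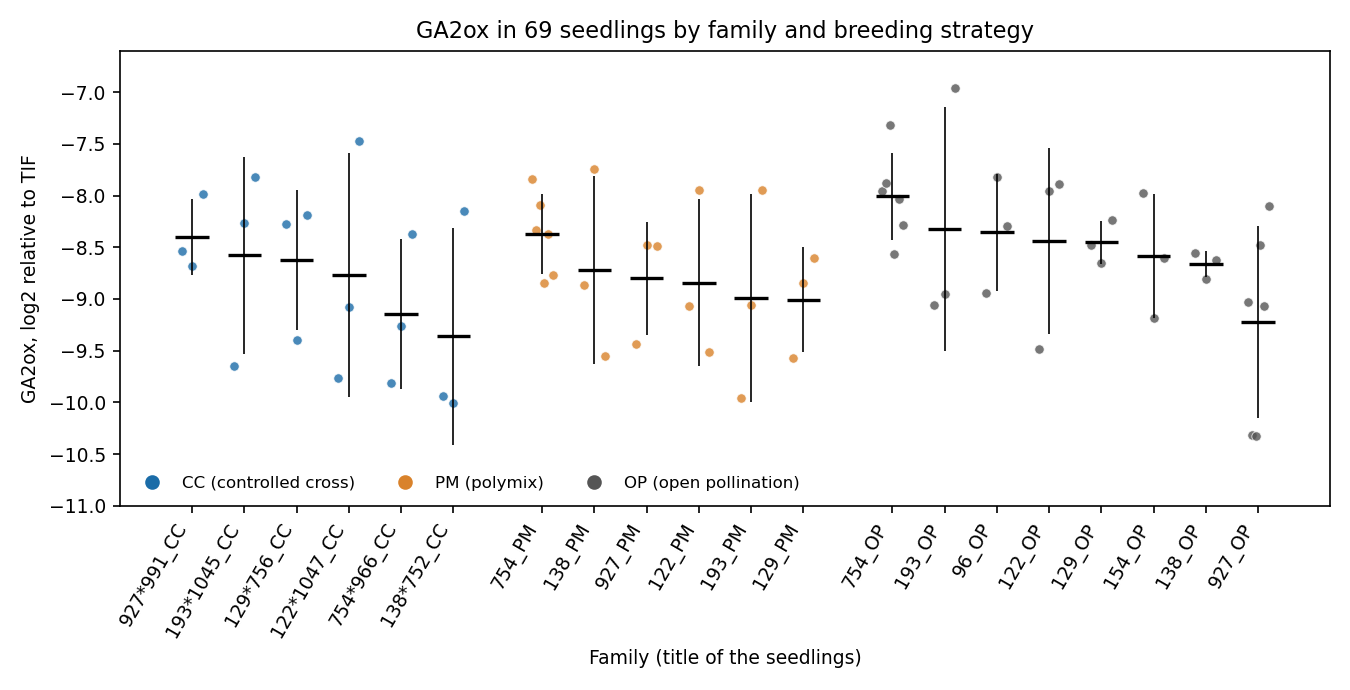
GA2ox (log2 relative to TIF) in 69 seedlings, by family and breeding strategy; each point is a seedling, the bar is the family mean and the line its SD (n = 3 or 6). Family means run between -8.01 in 754_OP and -9.36 in 138*752_CC, and single seedlings of most families cover much of that range.

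Differences between families were not detectable against the spread of seedlings within them. Means ranged between -8.01 ± 0.42 in 754_OP (SD, n = 6 seedlings) and -9.36 ± 1.05 in 138*752_CC (n = 3), a factor of 2.56. After 754_OP came 193_OP at -8.32 ± 1.18 and 96_OP at -8.36 ± 0.56, and above 138*752_CC stood 927_OP at -9.22 ± 0.92 (n = 6) and 754*966_CC at -9.15 ± 0.73. In the order of the 20 means, each of the 19 gaps between neighbours was smaller than the larger of the 2 SDs, and the widest gap, between 754_OP and 193_OP, was 0.32. The seedlings within a family had an SD of 0.74, and family means one of 0.34. Means of 3 or 6 seedlings spread less than single seedlings even where families do not differ. Neither these SDs nor the gaps between neighbours are therefore a test of family differences. Family differences had F = 0.874 (one-sided permutation p = 0.613, adjusted 0.837 over 5 genes), with an intraclass correlation of -0.04, and 0 of the 5 genes (0%) passed.

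The extreme families show how the seedlings lay. In 754_OP the 6 seedlings had GA2ox at -7.96, -7.88, -7.32, -8.57, -8.03 and -8.29, all at or above the median of the series. In 138*752_CC the 3 seedlings had -9.94, -10.00 and -8.15, so that 2 were among the lowest of the series and the other above its median. In 927_OP the values were -9.03, -10.31, -10.33, -8.48, -9.07 and -8.10, and 2 of its 6 seedlings were the lowest of all 69. In 193_OP they were -9.06, -8.95 and -6.96, so that the second-highest family mean rested on the highest single seedling. In 96_OP they were -8.95, -7.82 and -8.30, and in 754*966_CC -9.81, -9.26 and -8.37, with 1 seedling of each on the other side of the series median from its family mean.

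The extreme seedlings reached their values at different raw Ct. The highest, 193_OP repetition 3, had a GA2ox Ct of 28.9 and a TIF Ct of 21.9, and 754_OP repetition 3, the next at -7.32, had 28.0 and 20.7. The third highest was 122*1047_CC repetition 3 at -7.47, and the third lowest 138*752_CC repetition 2 at -10.00. The lowest, 927_OP repetition 3, had 32.1 and 21.7, whereas 927_OP repetition 2, nearly equal at -10.31, had 30.0 and 19.7. The same low value was therefore reached once with a late GA2ox Ct and once with an early TIF Ct. Over the 69 seedlings the Ct of GA2ox had a Pearson correlation of 0.65 with the TIF Ct of the same wells, given as a description of values that share an RNA sample.

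Within trees the OP family had the highest GA2ox mean of the 3 families for 5 of the 6 trees, and the lowest for the tree 927. Tree 754 had the widest spread below its OP family, at -9.15 for CC, -8.37 for PM and -8.01 for OP. Tree 927 ran the other way, with -8.40 in CC, -8.80 in PM and -9.22 in OP. The mean sample number in the titles was 20 for CC, 47.7 for PM and 44.8 for OP in tree 754. In tree 927 it was 49.3, 22.3 and 20 in the same order. Strategy and sample number therefore cannot be told apart in the CC minus OP differences of these 2 trees. The OP families of these 2 trees, with 6 seedlings each, are the only OP families of that size.

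The other 4 trees lay between in their CC minus OP difference. Tree 138 had -9.36 in CC, -8.72 in PM and -8.66 in OP. Tree 193 had -8.58, -8.99 and -8.32, tree 122 had -8.77, -8.84 and -8.44, and tree 129 had -8.62, -9.01 and -8.45, in the order of CC, PM and OP. The trees 96 and 154 have an OP family only, at -8.36 ± 0.56 and -8.59 ± 0.60 (SD, n = 3 seedlings each). For trees 193, 122 and 129 the PM family was lowest, and for tree 138 the CC family.

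CC minus OP per tree was -1.14 for tree 754, -0.70 for 138, -0.33 for 122, -0.25 for 193, -0.17 for 129 and 0.82 for 927, which are levels between 0.454 and 1.77 of OP. PM minus OP was -0.66 for tree 193, -0.55 for 129, -0.40 for 122, -0.37 for 754, -0.06 for 138 and 0.42 for 927. In every tree the ranges of the seedlings overlapped, for each of the 3 pairs of strategies. With the families paired by tree, the exact two-sided p from sign flips was 0.312 for CC minus OP and 0.156 for PM minus OP, where 6 trees allow a smallest p of 0.0312. CC minus PM was above 0 in 4 trees and below it in 2, with a mean of -0.03 (exact p = 1).

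**Figure D2:**
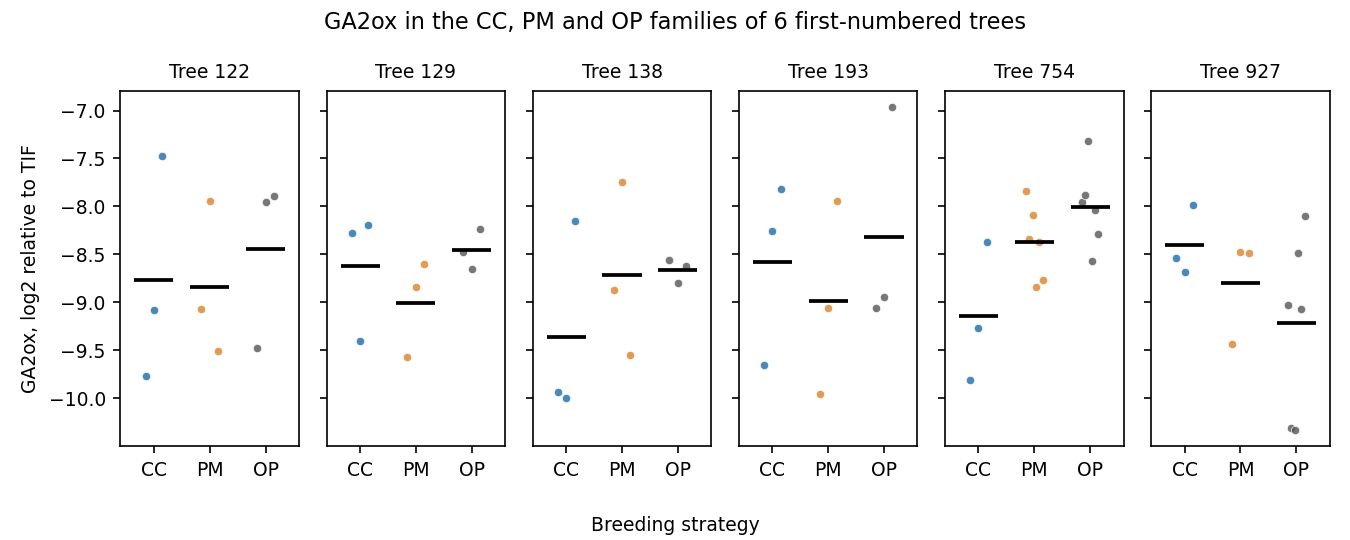
GA2ox (log2 relative to TIF) in the CC, PM and OP families of the 6 trees with all 3 strategies, 1 panel per tree; points are seedlings and bars are family means. The OP bar is the highest in the first 5 panels and the lowest in that of tree 927, and the seedlings overlap in every panel.

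A dependence of the strategy difference on the tree was not detectable. The interaction of tree and strategy over the 63 seedlings of these families had F = 0.960 (permutation p = 0.488, one-sided, adjusted 0.923 over 5 genes). Means over the 3 families of a tree lay between -8.91 for tree 138 and -8.51 for tree 754, and the tree had F = 0.403 after the strategy was taken into account (permutation p = 0.835, one-sided, adjusted 0.835).

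Ratios within a seedling set the inactivating enzyme against each synthetic one, and TIF cancels from them. A ratio compares different primer pairs, so that its differences between strategies can be read, but its distance from 0 depends on the primers. GA2ox over GA3ox averaged 1.12 ± 0.58 in CC (SD, n = 6 families), 1.21 ± 0.39 in PM (n = 6) and 1.99 ± 0.69 in OP (n = 8) on the log2 scale. CC minus OP was -0.87 ± 0.34 (SE), a ratio of 0.546 of that in OP (95% interval 0.320 to 0.929), with an exact two-sided permutation p of 0.0306. PM minus OP was -0.79 ± 0.29, a ratio of 0.579 (0.355 to 0.935), with an exact two-sided permutation p of 0.0280. The larger share of each difference was that of GA3ox itself, which was higher by 0.57 ± 0.24 (SE) in CC than in OP and by 0.51 ± 0.27 in PM than in OP, against -0.31 and -0.28 for GA2ox. Both ratio contrasts had an adjusted p of 0.0919 in the exact test over 6 ratio contrasts, of which 0 (0%) passed, with these 2 the only ones at an unadjusted p under 0.05. With the families paired by tree PM minus OP was -0.93, below 0 in all 6 trees (exact two-sided p = 0.0312, the smallest possible, adjusted 0.188), and CC minus OP was -1.02 (exact p = 0.0625, adjusted 0.188).

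GA2ox over GA20ox averaged -0.56 ± 0.49 over CC families, -0.49 ± 0.36 over PM families and -0.12 ± 0.57 over OP families. CC minus OP was -0.44, a ratio of 0.738 of that in OP, and PM minus OP -0.36, a ratio of 0.777 (exact two-sided permutation p = 0.162 and 0.196, both adjusted 0.294). Without repetition 3 CC minus OP in this ratio was -0.80 (exact p = 0.0243, adjusted 0.0729), without repetition 2 it was -0.21 and without 138*752_CC -0.26. CC and PM differed by -0.07 in this ratio and by -0.09 in GA2ox over GA3ox (exact permutation p = 0.775 and 0.753). Seedlings with GA2ox over GA20ox above 0 numbered 5 of 18 in CC, 4 of 21 in PM and 16 of 30 in OP, and families with a mean above 0 numbered 0 of 6 in CC, 1 of 6 in PM and 4 of 8 in OP.

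The family 138*752_CC had the lowest mean of both ratios, -1.45 over GA20ox and 0.48 over GA3ox. The highest mean over GA3ox was 3.18 in 754_OP, and the highest over GA20ox was 0.44 in 96_OP. The difference over GA3ox between CC and OP was -1.20 without repetition 3 (exact adjusted p = 0.0440) and -0.56 without repetition 1 (exact p = 0.297). Between PM and OP it was -1.35 without repetition 2 (exact adjusted p = 0.0160) and -0.33 without repetition 1 (exact p = 0.526).

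**Figure D3:**
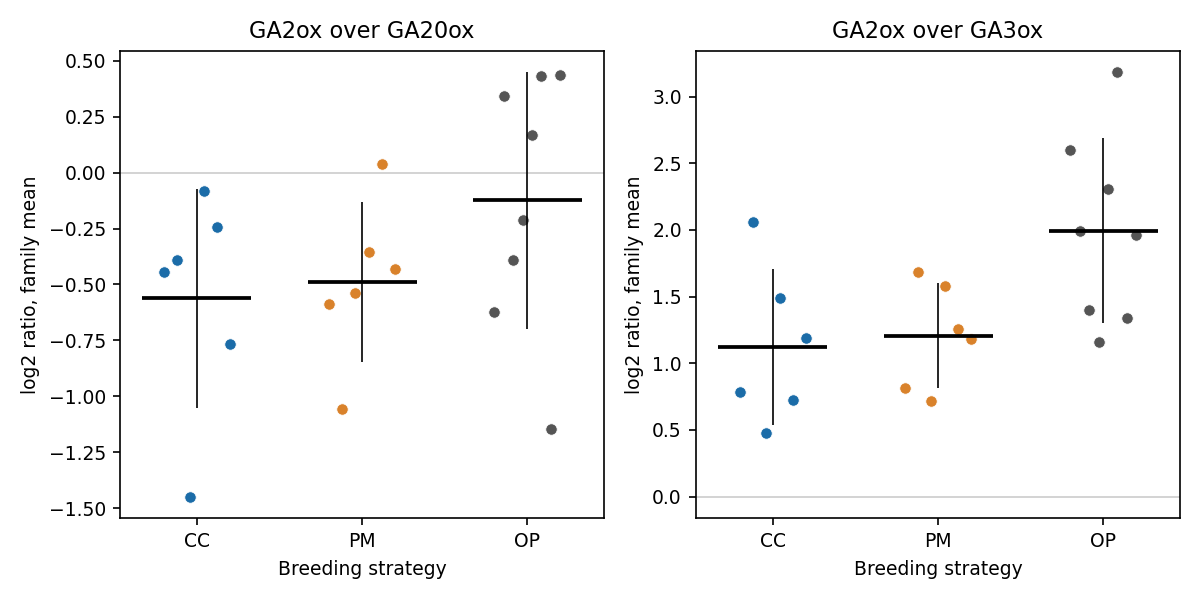
Family means of GA2ox over GA20ox (left) and over GA3ox (right), as log2 ratios, by breeding strategy; points are families, bars are strategy means and lines their SD (n = 6 CC, 6 PM and 8 OP families). OP families average higher in both panels, with overlap, at 1.99 over GA3ox against 1.12 in CC and 1.21 in PM.

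GA2ox relative to TIF rose with the sample number in the titles, which run from 1 to 69. The slope was 0.19 ± 0.04 (SE) per 10 numbers on the log2 scale, with Pearson's r of 0.51 (permutation p = 1e-05, two-sided, the smallest that 100000 resamples give, adjusted 5e-05 over 5 genes) while Spearman's rho was 0.48 (permutation p adjusted 0.00015). Without the 2 seedlings farthest from the middle number r was 0.51. GA2ox was the 1 gene of 5 (20%) that passed: r was 0.17 for DELLA, 0.10 for GA20ox, 0.01 for GID and -0.09 for GA3ox, with permutation p adjusted between 0.382 and 0.931. The mean sample number was 32.3 for CC, 37.9 for PM and 34.6 for OP seedlings. It was 14.95, 33.15 and 50 in repetitions 1, 2 and 3, so that repetition and sample number cannot be told apart in most families.

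The raw Ct values show what this relation consists of. The Ct of GA2ox did not pass the test against sample number, at r = 0.20 and 0.0877 cycles per 10 numbers (permutation p = 0.107, adjusted 0.118 over 11 measures). The TIF Ct of the same 3 wells rose by 0.277 cycles per 10 numbers (r = 0.67, permutation p adjusted 0.00011), and that of the 2 TIF wells run with DELLA and GID by 0.201 (r = 0.50, permutation p adjusted 0.00011). The Ct of the other genes rose as well, with r of 0.50 for GA20ox, 0.47 for GA3ox, 0.47 for GID and 0.36 for DELLA (permutation p adjusted between 0.00011 and 0.00526). Thus the Ct of every other gene and of the control gene rose with sample number, and 8 of the 11 measures passed (72.7%). At high numbers, where GA2ox relative to TIF was high, the TIF Ct was later and the GA2ox Ct was not earlier. How RNA amount, its quality or the order of the runs contributed was not tested.

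**Figure D4:**
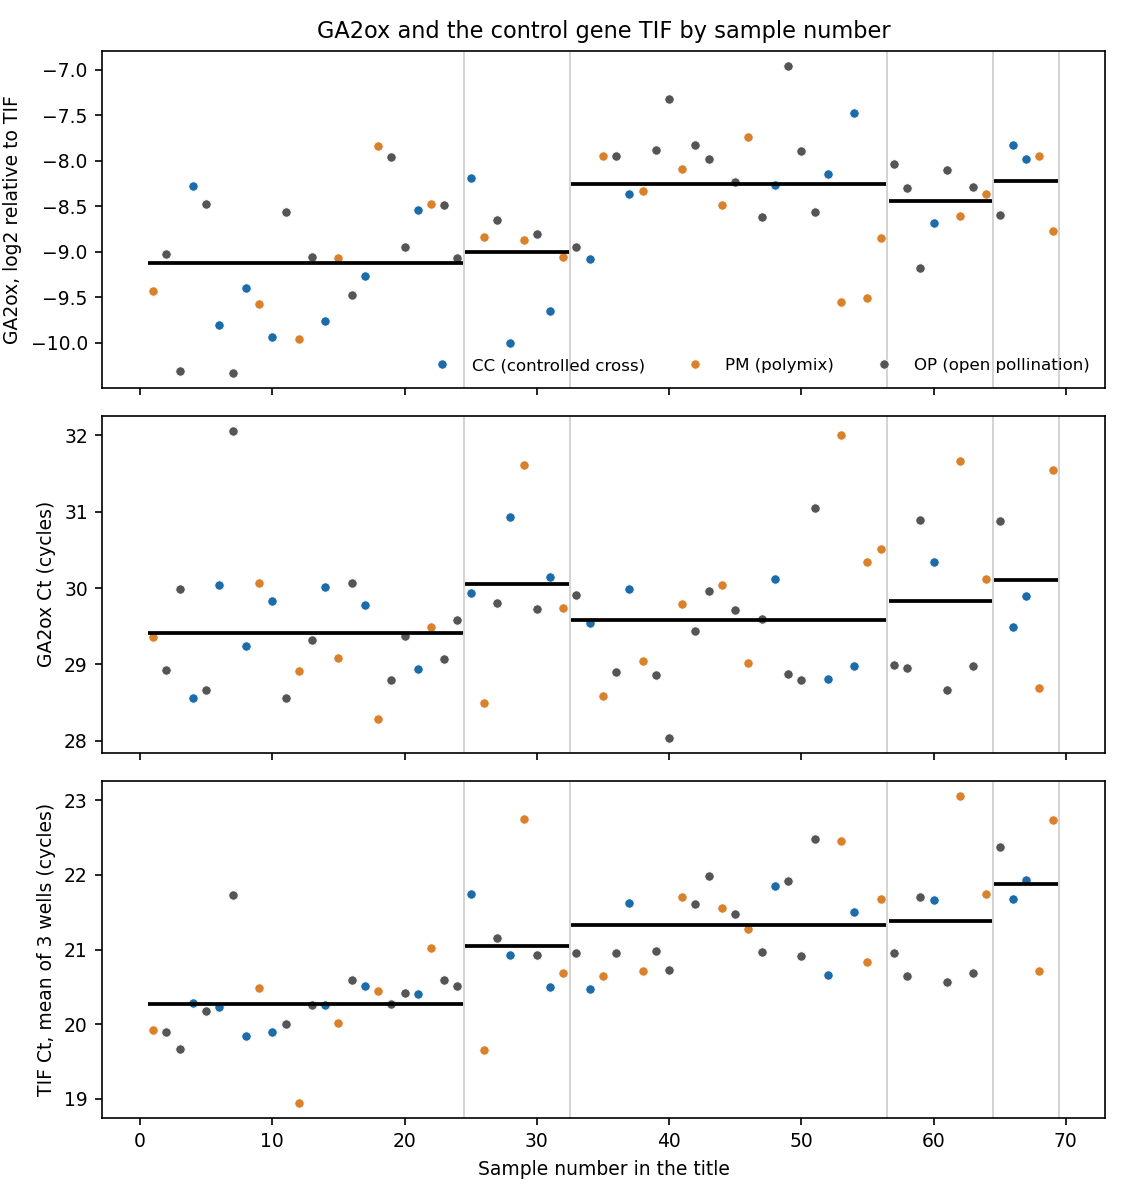
GA2ox (log2 relative to TIF, top), GA2ox Ct (middle) and Ct of the TIF wells run with it (bottom, cycles) against the sample number in the titles; points are seedlings coloured by strategy, grey lines part the 5 series of numbers and bars are series means. GA2ox Ct stays near 29.6 with wide spread while TIF Ct is later at higher numbers.

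**Figure D5:**
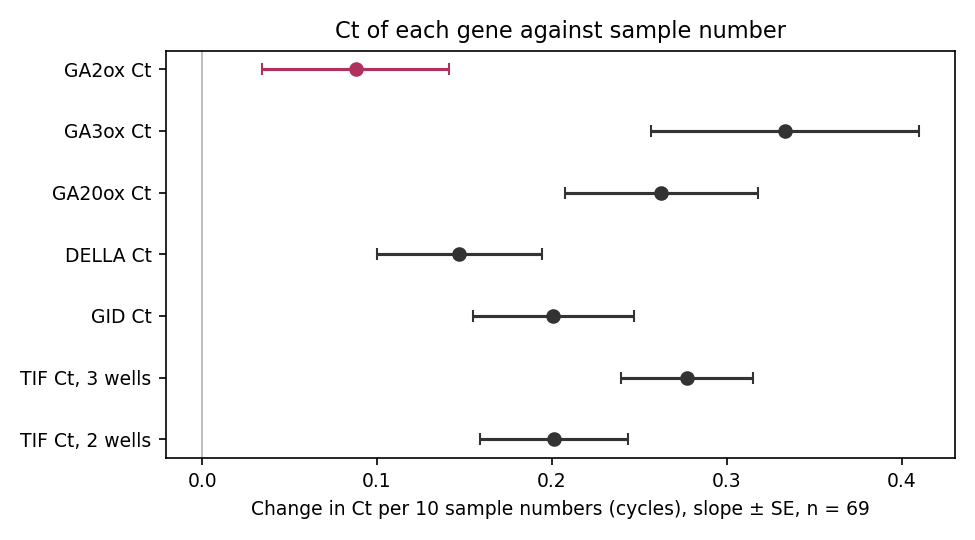
Slope of Ct against sample number (cycles per 10 numbers, with SE, n = 69 seedlings) for the 5 genes and both sets of TIF wells. GA2ox has 0.0877, against 0.277 for TIF in 3 wells.

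Set against the other targets instead of TIF, the correlation with sample number was lower, although the slope over GA3ox was not. GA2ox over GA20ox rose by 0.15 ± 0.05 (SE) per 10 numbers at r = 0.34 (permutation p = 0.00461, adjusted 0.00724) and GA2ox over GA3ox by 0.24 ± 0.09 at r = 0.32 (permutation p = 0.00653, adjusted 0.00898). Taken from Ct, GA2ox over GID had a slope of 0.11 ± 0.06 and r = 0.24 (permutation p = 0.0465, adjusted 0.0569) and GA2ox over DELLA one of 0.06 ± 0.06 and r = 0.11 (permutation p = 0.364, adjusted 0.364). GID and DELLA were run with the other set of TIF wells, whose Ct rose by 0.201 per 10 numbers against 0.277. These lower slopes therefore also carry the offset between the sets, and cannot show that the relation is weaker against GID or DELLA.

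The relation with sample number had the same sign in each strategy. The slope per 10 numbers was 0.25 for CC (r = 0.66, n = 18), 0.11 for PM (r = 0.34, n = 21) and 0.20 for OP (r = 0.54, n = 30). It passed in CC and OP (permutation p adjusted 0.00499 in both) and not in PM (permutation p = 0.129). The slopes themselves did not differ detectably, by 0.05 for CC minus OP, -0.10 for PM minus OP and 0.15 for CC minus PM (permutation of strategy labels over families, two-sided p = 0.689, 0.475 and 0.225).

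The sample numbers fall into 5 series that differ in the offset between the 2 sets of TIF wells. GA2ox averaged higher in the 3 later series than in the first 2. GA2ox averaged -9.13 ± 0.70 in samples 1 to 24 (SD) and -9.01 ± 0.57 in samples 25 to 32. It averaged -8.25 ± 0.63 in samples 33 to 56, -8.44 ± 0.37 in samples 57 to 64 and -8.22 ± 0.43 in samples 65 to 69. Seedlings above the overall median numbered 8 of 24, 1 of 8, 17 of 24, 5 of 8 and 3 of 5 in the same order, so that the level was high in the 3 later series and low in the first 2. The TIF Ct of the 3 wells averaged 20.3, 21.0, 21.3, 21.4 and 21.9, and the GA2ox Ct 29.4, 30.1, 29.6, 29.8 and 30.1. The series were read from TIF wells and so are not independent of this reference, for which reason no test between them is given.

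Within series the relation with sample number did not pass the test after adjustment. Pearson's r was 0.43 in samples 1 to 24 (permutation p = 0.0361, adjusted 0.144 over 4 series), -0.48 in samples 25 to 32 (permutation p = 0.235), -0.12 in samples 33 to 56 (permutation p = 0.562) and 0.00 in samples 57 to 64 (permutation p = 0.998). The last series has 5 seedlings and was given no correlation. With the series as a term, r over all 69 was 0.13 (permutation p = 0.297). The series are runs of consecutive numbers, so this term takes up much of the variation in sample number. The low r therefore cannot show that the relation is absent within series.

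The strategy differences are given per series, without a test. CC minus OP over seedlings was -0.22 in samples 1 to 24, -0.55 in 25 to 32, -0.25 in 33 to 56, -0.30 in 57 to 64, with 1 CC seedling, and 0.70 in 65 to 69, with 1 OP seedling. PM minus OP was 0.01, -0.20, -0.55, -0.11 and 0.24 in the same order. The offset of PM from OP was near 0 in the first series and largest in the third. Of the 6 seedlings of 927_OP, 5 lie in samples 1 to 24, at numbers 2, 3, 7, 23 and 24, and the other at 61. Of those of 754_OP 1 lies there, at number 19, and the others at 39, 40, 51, 57 and 63, so that family and series cannot be told apart in the difference between these families.

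None of the other 4 genes passed a test of correlation with GA2ox. Ordered by likeness, Pearson's r with GA2ox over the 69 seedlings was 0.16 for GID, 0.08 for GA20ox, 0.03 for DELLA and -0.15 for GA3ox (permutation p = 0.198, 0.509, 0.811 and 0.233, two-sided), and 0 of the 10 gene pairs (0%) passed. Spearman's rho was 0.14, 0.08, 0.06 and -0.20 in the same order (permutation p adjusted between 0.531 and 0.865). The share of 0% is that of Pearson's r. By rho the pair of DELLA and GID passed (rho = 0.54, permutation p adjusted 0.0001). Over the 20 family means r was 0.42 for GID, 0.37 for DELLA, -0.14 for GA20ox and -0.26 for GA3ox, with permutation p adjusted over 10 pairs of 0.344, 0.375, 0.684 and 0.455, and again 0 of 10 (0%) passed. Spearman's rho over family means put DELLA first, at 0.50, with 0.37 for GID, -0.25 for GA20ox and -0.19 for GA3ox. Its permutation p was 0.0272 for DELLA (adjusted 0.136). With the 2 families of most extreme GA2ox left out, r was 0.42, 0.48, 0.03 and 0.02 in the order of GID, DELLA, GA20ox and GA3ox. Without values of a well SD over 0.5, r with GA3ox over family means was -0.04. GA2ox shares its TIF wells with GA20ox and GA3ox, but not with DELLA and GID. Without any reference, on Ct alone, r with GA20ox over family means was 0.61 and with GID 0.58, both past the adjusted threshold (permutation p adjusted 0.0094 and 0.0124), and r with GA20ox over seedlings was 0.53 and with GID 0.42, also past it (permutation p adjusted 5e-05 and 0.00058), values that also share the amount of RNA in a seedling.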

How the data were processed

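The authors deposited Ct values per well, a score in cycles with 3 wells for GA2ox and for the TIF wells run with it, and a normalized log2 sheet. On checking, the deposited GA2ox value equals the mean GA2ox Ct minus the mean TIF Ct of 3 wells within 0.001 in 63 of 69 seedlings, and uses all 5 TIF wells in 4 others. Per the labels' protocols, cDNA from 0.5 µg of RNA was amplified over 40 cycles with SYBR Green. Efficiencies, thresholds and software are not stated in the labels. No sequence of the target or the primers was used here.

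The sign was turned to give expression. The replicate was the family mean. Contrasts used an exact two-sided permutation test of families on the absolute difference (3003 splits against OP, 924 for CC against PM), intervals of 95% by inverting that test, and p-values were adjusted by Benjamini-Hochberg over 15 gene or 6 ratio contrasts at 0.05. F tests and correlations used 100000 permutations with Python 3.11.15, numpy 2.4.6 and scipy 1.17.1. The family contrasts and the correlation with sample number were tried on data with known answers, but the F tests were not. All 5 genes were fitted alike, and named families are the extremes of GA2ox and the 6 trees with 3 strategies. The gene, the lists and the tests were chosen with earlier results of these data known. Alternatives were other references and scales, ranks, covariates, pairing by tree, the repetition number as a block and units left out. The 5 series of sample numbers, the comparisons of Ct and of ratios with sample number, and the slopes by strategy were chosen after seeing the data. The files held 0 columns of samples from elsewhere.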

Additional observations from a re-analysis of the deposited data

Results flagged for a closer look

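The groups with 4 to 10 members, of GA2ox values and of GA2ox over GA20ox and over GA3ox, numbered 18. Of these, 0 had a highest or lowest member set apart from its neighbours beyond Dixon's 95% limit, where chance gives about 1 in 20.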

How the results depend on the processing

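Under 401 alternatives over all results, 368 values kept their direction and their side of the threshold, and 27 changed sign. The 368 include contrasts run without a family of the strategy not compared, whose difference cannot change. They also include F values, which cannot change sign, so the count overstates how far the results held. With the sign kept, 1 no longer passed and 5 newly passed. Values that changed sign were counted as such whatever their side of the threshold. With no reference, r with sample number was among them and no longer passed (permutation p adjusted 0.107). So was r of GA2ox with GA20ox over family means, which newly passed (permutation p adjusted 0.0094). GA2ox in CC minus OP and in PM minus OP was negative under each alternative run. Leaving out repetitions gave -0.59 to -0.15 and -0.53 to -0.16, and leaving out families -0.41 to -0.20 and -0.38 to -0.21, with 0 of these past the adjusted threshold. CC minus PM, near 0, was 0.12 with no reference, 0.0406 on the linear scale, 0.33 in ranks and 0.0125 with sample number as a covariate, -0.43 to 0.32 without single repetitions and -0.11 to 0.08 without single families. For GA2ox over GA20ox, CC minus OP was -0.80 to -0.21 without single repetitions and -0.58 to -0.26 without single families, and CC minus PM was 0.0185 on the linear scale and 0.0784 without values of a well SD over 0.5, with or without 754_OP, -0.53 to 0.29 without single repetitions and -0.19 to 0.10 without single families. For GA2ox over GA3ox, CC minus OP was -1.20 to -0.56 and PM minus OP -1.35 to -0.33 without single repetitions, and CC minus PM -0.58 to 0.48, or -0.27 to 0.04 without single families. Causes were not tested.

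Same-numbered deviations had r of 0.53 for CC and OP, with 5 of 6 trees over 0.1, 0.20 for PM and OP (3 trees) and -0.18 for CC and PM (2 trees). The numbers were not taken as pairs, which required every tree to be over 0.1. With the repetition number as a block, GA2ox was -0.26 in CC minus OP, -0.19 in PM minus OP and -0.03 in CC minus PM, GA2ox over GA3ox was 0.0454 in CC minus PM, and r with sample number was 0.40 (permutation p = 0.00075). That r was -0.20 with no reference and 0.13 with the series as a term (permutation p = 0.297), and 0.47 to 0.52 without single repetitions. Over family means with no reference, r with GA2ox was 0.16 for GA3ox, 0.61 for GA20ox and 0.58 for GID, of which those for GA20ox and GID passed, and with TIF wells not shared 0.20 for GA20ox. Over seedlings with no reference it was 0.24 for GA3ox, 0.53 for GA20ox and 0.42 for GID, of which the last 2 passed, and -0.16 for DELLA with the series as a term.

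With 6 to 8 families per strategy, the 95% interval of GA2ox in CC minus OP runs from -0.72 to 0.12 on the log2 scale. The levels rest on a single control gene, and amplification efficiencies are not stated.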
